A study of Homo sapiens with 9 samples.

Results

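Chromatin accessibility was examined around 8 genes of kidney development, PAX2, PAX8, SIX2, WT1, LHX1, EYA1, SALL1 and OSR1, in HEK293T cells, an established line derived from human embryonic kidney. Every peak that touched the body of one of these genes, or lay within 50 kb of it on GRCh38, was taken. Overlapping peaks of the 4 peak lists were merged into regions, which gave 51 regions near the 8 genes out of 71597 in the whole series, 54497 of them within 50 kb of a protein-coding gene. The control list had 27 peaks near the 8 genes, the IGF2BP1 knockout list 41, the IGF2BP2 knockout list 41 and the IGF2BP3 knockout list 33.

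ATAC-seq, in which a transposase cuts and tags exposed DNA, was run on 4 groups of untreated HEK293T cells. The groups were cells given a CRISPR/Cas9 guide that targets no mammalian gene (2 libraries), and cells knocked out for IGF2BP1 (3 libraries), IGF2BP2 (2 libraries) or IGF2BP3 (2 libraries), which encode RNA-binding proteins. Each knockout was a single clone, grown from 1 sorted cell after transient delivery of a plasmid carrying 3 guides, and the effect of a genotype cannot be told apart from that of its clone. Each group has 1 peak list with positions only, so presence and width are described without a test, the spread between libraries is not known, and all 3 knockouts are set against the same control list. The read depth behind the lists is unknown, and an absent peak means only that none was called.

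The lists differed in length over the whole genome, from 39194 peaks covering 33.63 Mb in the control to 50917 peaks and 47.03 Mb in the IGF2BP1 knockout, 60262 peaks and 44.76 Mb in the IGF2BP2 knockout, and 44041 peaks and 35.64 Mb in the IGF2BP3 knockout. Covered length was thus 1.4, 1.33 and 1.06 times that of the control for cells lacking IGF2BP1, IGF2BP2 and IGF2BP3. The extra library of the IGF2BP1 knockout came from batch 1, which no other group has.

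Kidneys arise from intermediate mesoderm. OSR1, a zinc-finger protein, LHX1, a LIM-homeodomain protein, and the paired-box proteins PAX2 and PAX8 act early, in that mesoderm and in the nephric duct and early nephron. EYA1, a phosphatase and transcriptional co-activator, SIX2, a homeodomain protein that holds nephron progenitors in an undifferentiated state, and SALL1, a zinc-finger protein, act in the cap mesenchyme that gives rise to nephrons. WT1, a zinc-finger protein, is needed for survival of that mesenchyme and is later restricted to podocytes, the filtering cells of the glomerulus. A peak at a start site shows accessible DNA and is no measure of expression.

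RefSeq promoter sequences (GRCh38.p14) were matched for 4 of the 8 genes, PAX2, PAX8, SIX2 and WT1, and not for LHX1, EYA1, SALL1 and OSR1. The promoter window of a start site runs from 250 bases before it to 50 after it. The 250 bases before 5 of the 8 annotated starts are shown 5′ to 3′ on the gene's strand, because they set windows with a peak in all 4 lists beside windows with none. Capitals mark CG dinucleotides. The first PAX2 start (chr10:100735146-100735395, plus strand) and the PAX8 start (chr2:113278922-113279171, minus strand) had no peak in any list. The second PAX2 start (chr10:100745332-100745581, plus strand), the SIX2 start (chr2:45009453-45009702, minus strand) and the first WT1 start (chr11:32435540-32435789, minus strand) had a peak in every list.
PAX2 start 1: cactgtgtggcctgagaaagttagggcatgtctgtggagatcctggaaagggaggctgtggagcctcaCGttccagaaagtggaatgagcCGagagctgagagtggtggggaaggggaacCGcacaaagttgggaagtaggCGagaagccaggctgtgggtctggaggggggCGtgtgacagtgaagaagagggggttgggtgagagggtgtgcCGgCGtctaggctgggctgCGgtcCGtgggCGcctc
PAX2 start 2: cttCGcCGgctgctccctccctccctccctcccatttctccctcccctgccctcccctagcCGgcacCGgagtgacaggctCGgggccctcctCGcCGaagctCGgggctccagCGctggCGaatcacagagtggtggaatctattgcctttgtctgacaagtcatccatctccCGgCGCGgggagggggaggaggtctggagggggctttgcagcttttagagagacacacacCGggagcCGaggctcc
PAX8: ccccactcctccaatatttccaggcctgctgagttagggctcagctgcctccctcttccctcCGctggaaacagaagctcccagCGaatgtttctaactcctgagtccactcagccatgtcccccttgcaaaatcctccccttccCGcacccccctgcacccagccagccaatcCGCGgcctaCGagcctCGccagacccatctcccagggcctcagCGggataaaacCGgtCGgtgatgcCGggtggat
SIX2: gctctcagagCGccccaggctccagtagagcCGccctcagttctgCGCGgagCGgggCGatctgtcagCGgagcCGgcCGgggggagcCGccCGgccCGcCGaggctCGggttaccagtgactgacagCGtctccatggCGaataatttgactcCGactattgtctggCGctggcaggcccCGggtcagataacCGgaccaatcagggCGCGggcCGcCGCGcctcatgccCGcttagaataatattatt
WT1 start 1: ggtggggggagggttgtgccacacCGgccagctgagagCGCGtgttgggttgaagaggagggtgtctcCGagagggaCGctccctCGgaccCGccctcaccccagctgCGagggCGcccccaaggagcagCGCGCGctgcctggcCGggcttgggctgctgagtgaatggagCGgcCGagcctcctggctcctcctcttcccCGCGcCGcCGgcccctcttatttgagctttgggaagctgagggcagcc

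CG density of these windows was set beside that of promoters at large. The SIX2 window, with 29 CG dinucleotides in its 300-base span, had an observed to expected CG ratio of 0.949, and a peak in every list. The second PAX2 window had a ratio of 0.578 and the first WT1 window a ratio of 0.575, both with peaks in every list, while the first PAX2 window, at 0.561, had none. The PAX8 window was lowest of these 5, at 0.483, and had none. Over all 22198 windows of protein-coding genes, those with a ratio of at least 0.6 carried a control peak in 86.2% of cases and those below 0.6 in 18.6%. In cells lacking IGF2BP1, IGF2BP2 and IGF2BP3 the shares were 87.9%, 85.8% and 86.6% above the threshold, and 21.9%, 21.3% and 19.2% below it. The third WT1 start, inside the gene, had a ratio of 0.672 and no peak in any list.

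Short motifs were searched on both strands of the 300-base windows. GGGCGG was found at SIX2 and at the first WT1 start and is held by 45.0% of all 35116 promoter windows in the table. CCAAT was found at PAX8 and SIX2 and is held by 34.6%. TAATTA was found at WT1 start 3 (4.84% of all windows) and TGACTCA at WT1 start 4 (4.95%). None of the 8 windows held TATAAA (in 11.5% of all windows), CCGGAA (in 17.2%), GCGTGGGAG (in 0.689%) or CACGTG (in 7.26%). Both PAX2 windows held none of the 8 motifs, although 1 had peaks and the other did not.

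Peaks at the start sites were next compared by gene. Of the 4 genes with promoter windows, 3 had a peak over one in the control and in each knockout. Among all protein-coding genes with such windows the share with a peak was 66.7% in the control, 68.5% in the IGF2BP1 knockout, 67.5% in the IGF2BP2 knockout and 67.2% in the IGF2BP3 knockout. For the other genes a peak within 1 kb of either end of the gene stood in, since their start sites were not in the promoter table. Taken by gene ends alone, 4 of the 8 genes had a peak in the control, 4 in the IGF2BP1 knockout, 4 in the IGF2BP2 knockout and 6 in the IGF2BP3 knockout. The corresponding shares of all 20046 protein-coding genes were 66.1%, 68.3%, 67.9% and 66.7%. With the promoter window used where there was one and gene ends elsewhere, 5, 5, 5 and 7 of the 8 genes had a peak.

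**Figure D1:**
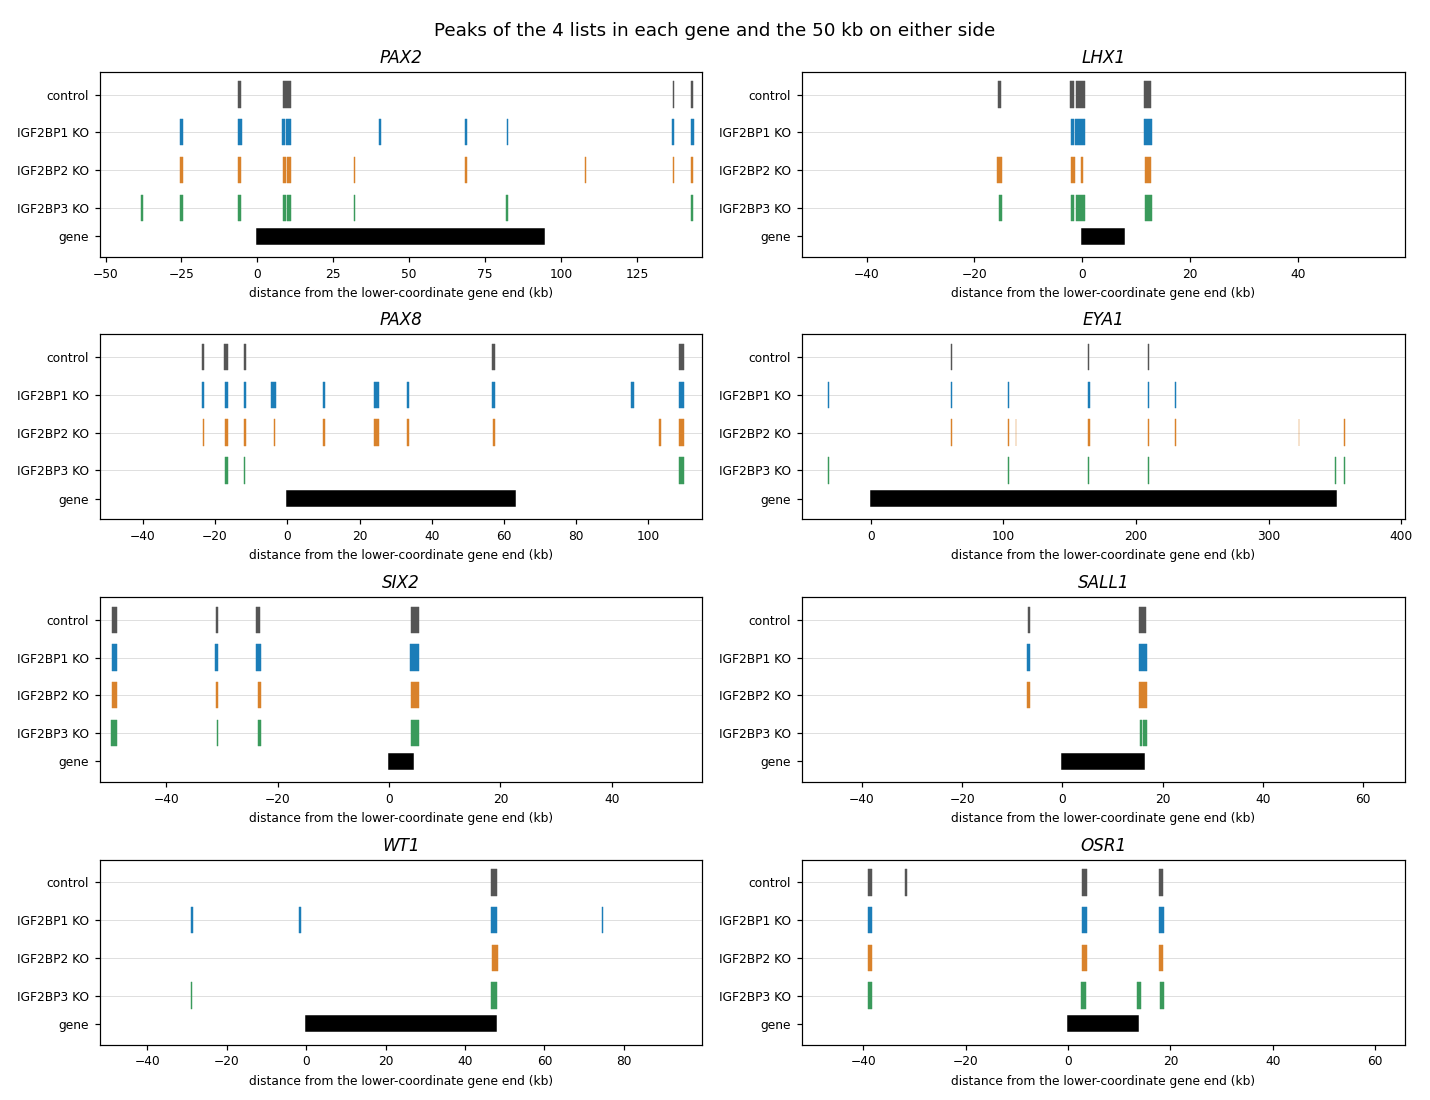
Peaks in the gene body and 50 kb on either side of each of the 8 genes, as bars along distance from the gene's lower-coordinate end in kb, with 1 row per peak list. SIX2 has the same 4 regions in every list, while PAX2, PAX8 and EYA1 have more peaks in the IGF2BP1 and IGF2BP2 knockouts than in the control.

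Among the genes of the early mesoderm, PAX2 had a wide peak in the control that was split in every knockout. PAX2 (chromosome 10, 100735396 to 100829944) was without a peak at its first start, and the accessible region lay over its second start, at 100745582. In the control this was 1 peak of 2712 bp, wider than 99.9% of the control's peaks. In the IGF2BP1 knockout the same stretch held a peak of 975 bp and one of 1621 bp with 217 bp between them. The IGF2BP2 knockout had peaks of 1071 and 1413 bp separated by 267 bp, and the IGF2BP3 knockout had peaks of 1130 and 1422 bp separated by 218 bp.

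The peak over the PAX2 start itself was therefore 0.598, 0.521 and 0.524 times as wide as in the control. The summed length of the pair was close to the control peak, at 2596, 2484 and 2552 bp. The gap lay upstream of the second start in all 3 knockouts. Of promoter peaks present in both lists, 0.697%, 4.38% and 3.59% were at least 1.5 times narrower than in the control in cells lacking IGF2BP1, IGF2BP2 and IGF2BP3. PAX2 was the 1 gene of the 3 with peaks to pass that size, and it did so in each knockout. Of 10037 control promoter peaks, 15 (0.149%) were split in all 3 knockouts. Wide peaks were split more often: among 361 control promoter peaks of at least 2000 bp, 11 (3.05%) were split in all 3, and 5.54%, 24.7% and 15.0% in cells lacking IGF2BP1, IGF2BP2 and IGF2BP3 taken singly. With peaks closer than 500 bp merged, the PAX2 ratios were 1.04, 1.01 and 1.02, so the difference was the gap and not the outer extent.

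**Figure D2:**
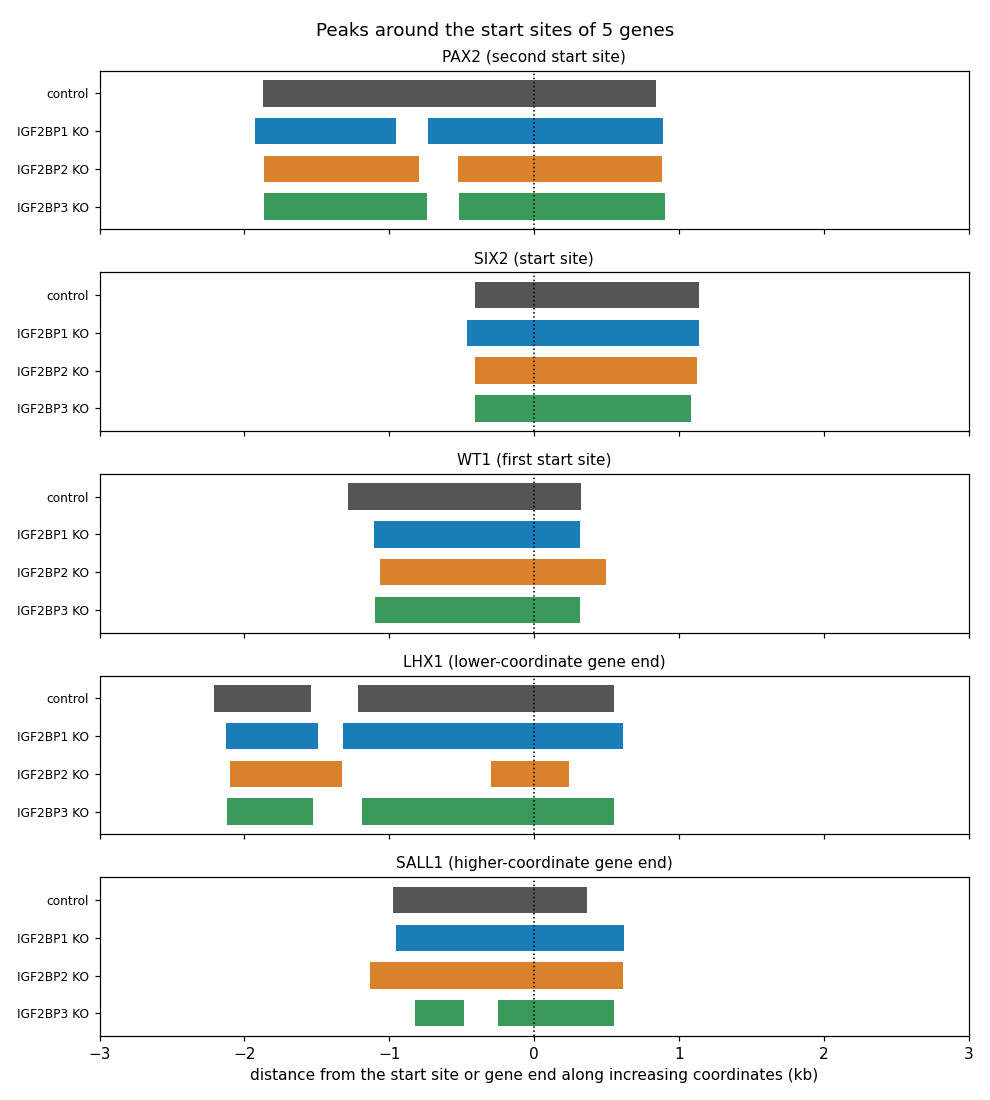
Peaks within 3 kb of the start site, or of the gene end where no start site was matched, for the 5 genes with a peak there in every list, 1 row per list. The single 2712 bp control peak at PAX2 is a pair of peaks in each knockout, LHX1 is narrow in the IGF2BP2 knockout (538 bp), and SALL1 is a pair in the IGF2BP3 knockout.

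LHX1 (chromosome 17, 36936785 to 36944612) had a peak over its lower-coordinate end in every list. It measured 1768 bp in control cells and 1935, 538 and 1743 bp in cells lacking IGF2BP1, IGF2BP2 and IGF2BP3. The IGF2BP2 value stood apart, at 0.304 times the control, while the other 3 lists lay close together. At gene ends of all protein-coding genes, 5.27% of peaks shared with the control were at least 1.5 times narrower in the IGF2BP2 knockout. A neighbouring peak about 1.32 kb outside the gene measured 670, 636, 776 and 600 bp in control cells and in cells lacking IGF2BP1, IGF2BP2 and IGF2BP3. The stretch between these peaks without a call was 323, 172, 1024 and 332 bp, so the missing length in the IGF2BP2 knockout fell on the side facing its neighbour and at the inner edge. The LHX1 end peak also lies within 1 kb of an end of the divergent transcript LHX1-DT, and its accessibility cannot be assigned to 1 of the 2 genes.

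PAX8 (chromosome 2, 113215997 to 113278921) had no peak over its promoter window or within 1 kb of either end in any list. The nearest region to its start lay 5.4 kb inside the gene, at 113272592 to 113273521. It measured 923 bp in control cells and 842 and 559 bp in cells lacking IGF2BP1 and IGF2BP2, and no peak was called in the IGF2BP3 knockout.

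OSR1 (chromosome 2, 19344874 to 19358623) had a peak at a gene end in the IGF2BP3 knockout alone, of 681 bp, over the higher-coordinate end. EYA1 (chromosome 8, 71197433 to 71548094) likewise had one in the IGF2BP3 knockout alone, of 662 bp, just inside its higher-coordinate end. Both genes are transcribed from higher to lower coordinates, so these ends are the outermost starts of the annotated genes. The pattern was held by 117 of 20046 protein-coding genes (0.584%), here by 2 of 8. Both peaks were narrower than the median of their list, 713 bp. The EYA1 peak also lay at an end of the uncharacterised gene LOC102724772. Start sites inside these genes were not in the promoter table and could not be read. Inside EYA1, 2 regions had a peak in every list, and whether a start site lies at either was not tested.

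Genes with the same pattern of gene-end calls were ranked by how closely the covered length of their windows matched, as a Euclidean distance on the log2 scale over the 4 lists among 92 candidates. PRMT8 (0.54) and KCNH8 (0.67) were closest to EYA1. FAM177A1 (0.22) and SNCG (0.26) were closest to OSR1. PRMT8 encodes an arginine methyltransferase, KCNH8 a potassium channel subunit and SNCG a synuclein.

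Among the genes of the nephron progenitor, SIX2 had the start peak that varied least. The SIX2 start peak (chromosome 2, 45008987 to 45010587 over the 4 lists) measured 1546 bp in control cells and 1601, 1535 and 1488 bp in cells lacking IGF2BP1, IGF2BP2 and IGF2BP3, with ratios to control of 1.04, 0.993 and 0.962. All 4 regions in the SIX2 window were present in every list. The other 3 lay 22.9, 30.6 and 48.8 kb beyond the lower-coordinate end of the gene, on its downstream side. The middle one of these varied most, at 512, 568, 357 and 307 bp in the control, IGF2BP1, IGF2BP2 and IGF2BP3 lists. The nearest measured 749, 959, 649 and 677 bp in control cells and in cells lacking IGF2BP1, IGF2BP2 and IGF2BP3.

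WT1 (chromosome 11, 32387775 to 32435539) had a peak at its first start in every list. It measured 1607 bp in control cells and 1424, 1555 and 1418 bp in cells lacking IGF2BP1, IGF2BP2 and IGF2BP3, and no ratio to control reached 1.5 in either direction. The control peak extended farther into the gene and touched the window of the second WT1 start, which no knockout peak reached. WT1 starts 3 and 4 had no peak in any list. The antisense gene WT1-AS has an end in the same region, so the peak cannot be assigned to 1 strand.

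SALL1 (chromosome 16, 51135982 to 51152334) had a peak over its higher-coordinate end in every list, which is its start side. The widest peak there measured 1338 bp in control cells and 1578, 1747 and 803 bp in cells lacking IGF2BP1, IGF2BP2 and IGF2BP3. In the IGF2BP3 knockout a second peak of 334 bp lay 237 bp away, and the pair summed to 1137 bp. The widest peak was 0.6 times the control. Of gene-end peaks shared with the control, 4.15% were at least 1.5 times narrower in that knockout. With peaks closer than 500 bp merged the ratio was 1.03.

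Away from start sites the lists shared less. Of the 51 regions, 20 (39.2%, exact 95% interval 25.8% to 53.9%, for counting error only) were in all 4 lists, against 46.7% of the regions within 50 kb of any protein-coding gene. All 3 regions at a promoter window and 2 of the 4 at a gene end were in every list, compared with 12 of 28 in the flanks (42.9%) and 3 of 16 inside genes (18.8%). Of the 44 regions away from the genes' own starts and ends, 15 (34.1%) were in all 4 lists. Among all regions within 50 kb of a protein-coding gene, the share was 32.5% away from the starts and ends of any coding gene and 83.5% at them. The 44 still include a region at an end of another coding gene, AATF, so the sets were not drawn quite alike. With that limit, the distal regions of the 8 genes were shared about as often as distal regions near coding genes.

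Widths of the 20 regions in all 4 lists varied little, with a median ratio of the widest to the narrowest list of 1.24 (range 1.08 to 3.6), against a median of 1.32 for the 29686 such regions of the series. The highest of these ratios was at the LHX1 end peak. The control list held 27 of the 51 regions (52.9%), the IGF2BP1 knockout 40 (78.4%), the IGF2BP2 knockout 40 (78.4%) and the IGF2BP3 knockout 31 (60.8%). Of the regions near all protein-coding genes, the lists held 59.9%, 74.9%, 83.8% and 63.8% in the same order.

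Regions in all 3 knockouts and not the control numbered 2 of 51 (3.92%), against 6.12% near coding genes in general. The first lay 24.6 kb outside PAX2, upstream (chromosome 10, 100709766 to 100710832), and measured 1039, 735 and 881 bp in cells lacking IGF2BP1, IGF2BP2 and IGF2BP3. The other was inside EYA1 (chromosome 8, 71301072 to 71301950), at 840, 879 and 717 bp. The control alone held 1 region (1.96%, against 2.1%), a 369 bp peak 31.4 kb outside OSR1 (chromosome 2, 19313090 to 19313458). When each list was held to its widest 39194 peaks, the share in the control alone was 9.09% of 44 regions.

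PAX8 held most of the regions called in the IGF2BP1 and IGF2BP2 knockouts and in neither other list, with 4 of the 6 such regions near the 8 genes. They lay 3.05 kb beyond the lower-coordinate end and at 3 sites inside the gene. The first (113211396 to 113212948) measured 1553 bp in the IGF2BP1 knockout and 310 bp in the IGF2BP2 knockout. The region at 113239966 to 113241308 measured 1323 and 1202 bp. That at 113225743 to 113226367 measured 559 and 591 bp, and that at 113249077 to 113249631 measured 555 and 463 bp. At least 4 such regions were found in the windows of 77 of 20046 protein-coding genes (0.384%), and of 22 of the 1254 on chromosome 2 (1.75%). PAX8 also had the lowest share of its regions in the IGF2BP3 knockout among the 8 genes, 3 of 11 (27.3%). That list held 63.8% of regions near all protein-coding genes and 45.4% of the regions on chromosome 2.

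For PAX2, SIX2, WT1 and SALL1 the region whose narrowest call was widest was the start region itself. For the other 4 genes it lay elsewhere. The one at PAX8 lay 45.4 kb beyond the start side, at an end of the non-coding genes LINC02966 and LOC105373567 (chromosome 2, 113324338 to 113325866), and measured 1261, 1529, 1430 and 1227 bp in control cells and in cells lacking IGF2BP1, IGF2BP2 and IGF2BP3. Inside OSR1, a region at the microRNA gene MIR4757 (chromosome 2, 19347470 to 19348540) measured 891, 971, 951 and 967 bp. A region 3.68 kb beyond LHX1, at an end of the gene AATF, measured 1224, 1453, 1116 and 1307 bp. Within EYA1, a region at 71257700 to 71258780 measured 947, 1081 and 859 bp in the first 3 of these lists and was not called in cells lacking IGF2BP3. In all, 7 of the 51 regions lay within 1 kb of an end of another annotated gene.

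The covered length of the whole window, the gene and 50 kb on either side, was then compared. PAX2 had 5015 bp under peaks in control cells and 8343, 7158 and 6723 bp in cells lacking IGF2BP1, IGF2BP2 and IGF2BP3. These were 1.66, 1.43 and 1.34 times the control, and all 3 knockouts were above it. PAX8 had 4233, 9113, 6809 and 2327 bp in the same order, or 2.15, 1.61 and 0.55 times the control, so the knockouts fell on both sides. EYA1, the longest of the 8 genes, had 2442, 5233, 5602 and 4324 bp, or 2.14, 2.29 and 1.77 times the control, again with every knockout above it. Within 10 kb of PAX8 the ratios were 5.24 and 3.39 in the IGF2BP1 and IGF2BP2 knockouts, over a single control peak of 923 bp. The IGF2BP3 knockout had no peak within that distance. Without peaks at an end of another gene, which leaves out EYA1's own end peak, the EYA1 ratio in the IGF2BP3 knockout was 1.15.

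**Figure D3:**
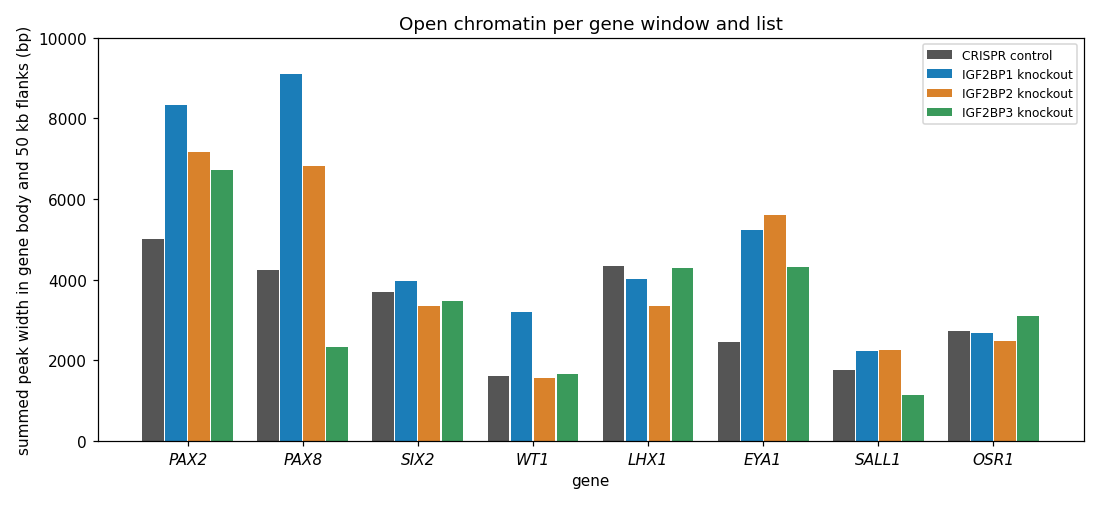
Length under peaks (bp) in the window of each of the 8 genes, the gene body with 50 kb on either side, with 1 value per peak list and no error because each group has 1 list. PAX8 runs from 2327 bp in the IGF2BP3 knockout to 9113 bp in the IGF2BP1 knockout, and SIX2 only from 3336 to 3967 bp.

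WT1 had 1607 bp in control cells and 3191, 1555 and 1670 bp in cells lacking IGF2BP1, IGF2BP2 and IGF2BP3. The IGF2BP1 value, 1.99 times the control, came from 3 flanking regions, 2 of them in that list alone, and within the gene body the ratio was 0.886. SALL1 had 1748, 2221, 2261 and 1137 bp, with the IGF2BP3 knockout at 0.65 times the control. A flanking region 6.43 kb beyond SALL1 was called in the other 3 lists (410, 643 and 514 bp) and not in the IGF2BP3 knockout. SIX2 (3695, 3967, 3336 and 3463 bp), LHX1 (4332, 4024, 3340 and 4287 bp) and OSR1 (2734, 2678, 2480 and 3088 bp) stayed within 1.5 times of the control in every knockout, although within the LHX1 gene body the IGF2BP2 ratio was 0.304. At LHX1, 1 region 14.9 kb outside the gene was not called in the IGF2BP1 knockout (670, 910 and 637 bp in the control and the IGF2BP2 and IGF2BP3 knockouts). Leaving out peaks at an end of another gene also dropped the LHX1 end peak, which lies at LHX1-DT, and the region at AATF. On the flanking peaks that remained, 670 bp each in the control, the LHX1 ratios were 0.475 and 1.26 in the IGF2BP1 and IGF2BP2 knockouts. Within the OSR1 gene body the IGF2BP3 ratio was 1.85.

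In the IGF2BP1 knockout 4 of the 8 windows (PAX2, PAX8, WT1 and EYA1) were at least 1.5 times the control, against 22.0% of protein-coding genes with peaks in both lists, and none was 1.5 times below it, against 0.829%. In the IGF2BP2 knockout 2 windows (PAX8 and EYA1) were above, against 16.1%, and none below, against 2.09%. In the IGF2BP3 knockout 1 window (EYA1) was above, against 6.88%, and 2 (PAX8 and SALL1) were below, against 6.42%. Median ratios over all protein-coding genes were 1.2, 1.1 and 0.982, and over the 8 genes 1.46, 1.13 and 1.02. The summed length was 25806 bp in the control and 38770, 32541 and 27019 bp in cells lacking IGF2BP1, IGF2BP2 and IGF2BP3, or 1.5, 1.26 and 1.05 times the control, beside 1.4, 1.33 and 1.06 for the lists as a whole. With each list held to its widest 39194 peaks, the ratio of WT1 in the IGF2BP1 knockout was 1.34 and that of PAX8 in the IGF2BP2 knockout 1.23, both short of 1.5. PAX2 in the IGF2BP1 knockout was at 1.49 with 10 kb and 1.33 with 100 kb on either side. In gene bodies alone, the IGF2BP3 ratios were 1.22 for EYA1 and 0.85 for SALL1.

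**Figure D4:**
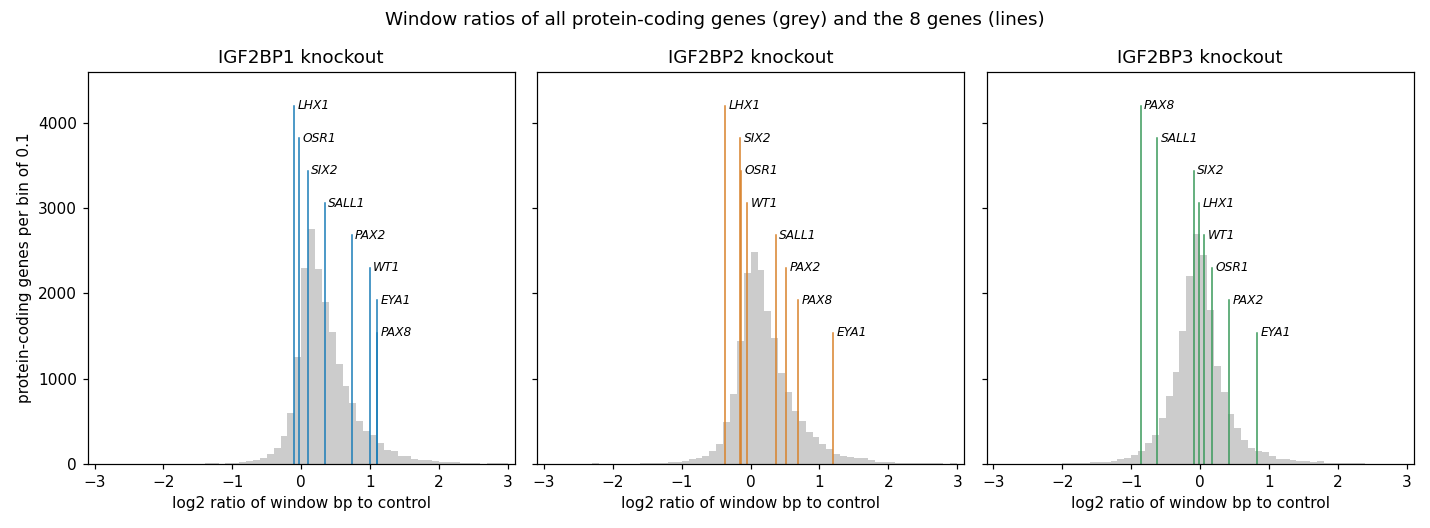
Ratio of the length under peaks in a gene's window to the control, on a log2 axis with log2 values beyond 3 in either direction set at 3, as a histogram of all protein-coding genes and as a labelled line for each of the 8 genes (the height of a line carries no value), with 1 panel per knockout. EYA1 lies at or above 1.77 in every panel, and PAX8 is at 2.15, 1.61 and 0.55.

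Chromosome-wide shares of the lists moved with some of these values. The share of a list's peaks that lay on chromosome 2, which carries PAX8, SIX2 and OSR1, was 0.778 times the control in the IGF2BP3 knockout, and on chromosome 16, which carries SALL1, it was 0.782 times. Of the windows of protein-coding genes on chromosomes 2 and 16, 16.2% and 15.2% were at least 1.5 times below the control in that knockout. On chromosome 2, 29.3% and 24.7% were at least 1.5 times the control in the IGF2BP1 and IGF2BP2 knockouts. Chromosome 10, which carries PAX2, had shares of 0.875, 0.871 and 1.07 times the control in cells lacking IGF2BP1, IGF2BP2 and IGF2BP3. There 12.8%, 10.8% and 10.7% of windows were at least 1.5 times the control. Chromosome 17, which carries LHX1, stood at 0.743 in the IGF2BP1 knockout, and chromosome 11, which carries WT1, at 0.71 in the IGF2BP2 knockout. On chromosome 8, which carries EYA1, the shares were 1.01, 1.03 and 1.05 in cells lacking IGF2BP1, IGF2BP2 and IGF2BP3, and 27.7%, 22.8% and 10.7% of windows there were at least 1.5 times the control. The part of these chromosome-wide shares in the values of PAX8 and SALL1 was not tested.

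Other regulators of kidney development were read in the same way. Of 37 such genes, 27 had a peak at a gene end in the control, 28 in the IGF2BP1 knockout, 26 in the IGF2BP2 knockout and 26 in the IGF2BP3 knockout. Of the 23 with promoter windows, 17, 16, 15 and 16 had a peak over one, or 73.9%, 69.6%, 65.2% and 69.6%, near the shares for all protein-coding genes given above. By start site, 25 of the 37 had a peak in all 4 lists and 10 in none. Shares in all 4 lists or in none were not taken over all protein-coding genes. Such counts therefore have no matching share, here or for the gene lists below. The widest in the control were at SIX4, a homeodomain gene related to SIX2 (3171 bp), GFRA1, the GDNF co-receptor (2650 bp), TBX18, a T-box gene of the ureteric mesenchyme (2506 bp), HOXD11, a homeobox gene needed for kidney growth (1920 bp), NOTCH2 (1721 bp) and its ligand gene JAG1 (1691 bp). The widest HOXD11 peak was narrower in every knockout, at 840, 870 and 817 bp in cells lacking IGF2BP1, IGF2BP2 and IGF2BP3. SIX4 measured 3272, 1181 and 1071 bp in the same order, and the other 4 stayed within 1.5 times of the control. These are widths of the widest single peak. Whether the HOXD11 and SIX4 peaks were split, as at PAX2, was not tested.

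The kidney regulators without a start-site peak in any list included HNF4A, a nuclear receptor of the proximal tubule, and IRX1 and IRX2, homeobox genes of the nephron. HOXA11 had none over its promoter windows but one at a gene end in every list. Presence over the promoter window differed at 2 genes. FOXC1, a forkhead gene, had a promoter peak of 822 bp in the control alone, and WNT4, which drives the conversion of progenitors to epithelium, had one of 549, 538 and 502 bp in the control and the IGF2BP1 and IGF2BP3 knockouts and none in the IGF2BP2 knockout. By gene ends, FOXC1 had a peak in the control and the IGF2BP1 knockout, and WNT4 had one in all 4 lists. The share of all protein-coding genes whose promoter call differs between lists was not taken, so these 2 are not set apart from genes at large.

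Genes of the differentiated kidney had fewer. Of 15, 3 had a start-site peak in all 4 lists and 12 had none in any. PODXL, a podocyte surface protein, had widths of 1158, 1116, 1031 and 1203 bp in control cells and in cells lacking IGF2BP1, IGF2BP2 and IGF2BP3. LRP2, the endocytic receptor megalin of the proximal tubule, had 883, 1392, 1069 and 1091 bp, and CALB1, a calcium-binding protein of the distal tubule, had 492, 947, 530 and 653 bp. Those without one included AQP1 and AQP2, water channels, CDH16, a kidney cadherin, CUBN, the receptor cubilin, and NPHS1, which encodes nephrin of the podocyte slit diaphragm. By gene ends, 3, 5, 4 and 3 of the 15 had a peak in the 4 lists (20.0%, 33.3%, 26.7% and 20.0%), against 66.1%, 68.3%, 67.9% and 66.7% of all protein-coding genes.

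**Figure D5:**
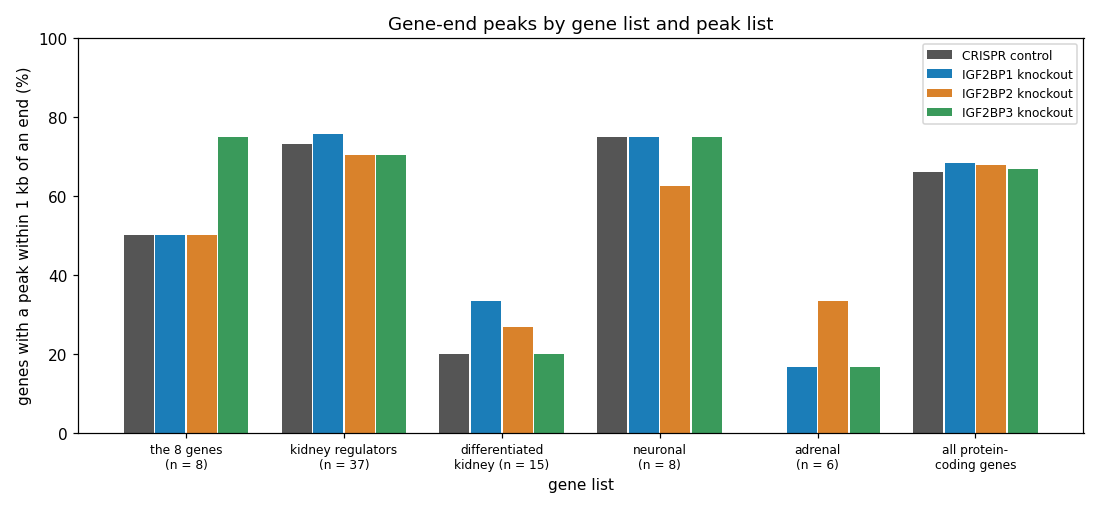
Percentage of genes with a peak within 1 kb of a gene end in each peak list, for the 8 genes, 4 gene lists (kidney regulators, differentiated kidney, neuronal, adrenal) and all protein-coding genes. Kidney developmental regulators lie between 70.3% and 75.7%, and differentiated kidney genes between 20.0% and 33.3%.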

How the data were processed

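Omni-ATAC libraries of HEK293T cells were made by the authors, per the labels' protocols. Per the submitters' processing notes, fastp 0.24.1, BWA 0.7.17, MACS2 3.0.0, bedtools and GRCh38 were used; their roles, thresholds and how libraries were combined are not given in the sources used here. The authors deposited 1 list of peak positions in bp per group, with no score, so list length moves with unknown depth and threshold.

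From these lists, peaks overlapping by at least 1 bp were merged with Python 3.11.15, numpy 2.4.6 and pandas 2.3.3, after the interval code was tested on simulated data. A start-site peak overlapped a RefSeq promoter window or, for the 4 genes outside the promoter table, lay within 1 kb of a gene end, a choice made after the table was seen. A ratio of 1.5 in either direction was the size called different. Genes and lists were chosen with earlier results of these data known. All 8 genes were named, with their start regions, widest region and regions in the control alone or all knockouts alone. From other lists, genes that differed were named, with up to 6 present in all lists and 6 in none; some of these are not reported here. Other regions were named after their values were seen. The closing section gives alternative windows, merging and list lengths.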

Additional observations from a re-analysis of the deposited data

How the results depend on the processing

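No paired analysis was possible because each group has 1 peak list and no library has values of its own. Of 82 alternative values of the main results, 81 stayed within 1.5 times of the reported count or total or, for shares of regions, within the exact 95% interval of the reported share. The exception was the share of regions in the control alone, 0.0% without OSR1. With the widest peaks of each list that share was 9.09% of 44 regions, against 1.96% as reported, inside its wide interval. Intervals from 51 regions are wide, and leaving out a gene reuses the remaining regions, so staying inside them says little about stability. With peaks closer than 500 bp merged, width ratios at PAX2 turned to 1.04, 1.01 and 1.02 in cells lacking IGF2BP1, IGF2BP2 and IGF2BP3. SALL1 in the IGF2BP3 knockout turned to 1.03, and LHX1 in the IGF2BP2 knockout moved to 0.195. At LHX1 the merging joined the end peak to its neighbour in the control and the IGF2BP1 and IGF2BP3 knockouts (gaps of 323, 172 and 332 bp). In the IGF2BP2 knockout the gap of 1024 bp kept them apart, so 0.195 does not compare like with like. By summed bp within 1 kb of the LHX1 gene ends, the IGF2BP2 ratio was 0.347. In gene bodies alone, the WT1 ratio in the IGF2BP1 knockout was 0.886, PAX8 ratios were 3.55 and 3.05 in the IGF2BP1 and IGF2BP2 knockouts, LHX1 was 0.304 in the IGF2BP2 knockout, and OSR1 was 1.85 in the IGF2BP3 knockout. Windows of 10 kb gave PAX8 ratios of 5.24 and 3.39. At PAX8 both settings rest on a single control peak of 923 bp, and neither held a peak in the IGF2BP3 knockout. Without peaks at an end of another gene, EYA1 was at 1.15 in the IGF2BP3 knockout. LHX1 was then at 0.475 and 1.26 in the IGF2BP1 and IGF2BP2 knockouts. That setting also drops the end peaks of EYA1 and LHX1 themselves, so these ratios rest on the other peaks of each window. When each list was held to its widest 39194 peaks, the 538 bp LHX1 end peak of the IGF2BP2 knockout fell outside the peaks kept. The causes were not tested.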

Other observations

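Markers of other tissues were also read for start-site peaks, as positions and not as expression. HEK293T cells are known to express neuronal genes, and 5 of 8 neuronal markers had a start-site peak in all 4 lists. These were the neurofilament genes NEFL and NEFM, the intermediate filament gene INA, the enolase gene ENO2 and the growth-cone gene GAP43. At NEFM the widths were 744 bp in control cells and 1725, 718 and 500 bp in cells lacking IGF2BP1, IGF2BP2 and IGF2BP3. The tubulin gene TUBB3 had 708, 807 and 919 bp in the control and the IGF2BP1 and IGF2BP3 knockouts, with no peak called in the IGF2BP2 knockout. NEFH and STMN2 had none. By gene ends, 6, 6, 5 and 6 of the 8 markers had a peak in the control, IGF2BP1, IGF2BP2 and IGF2BP3 lists. The shares of all protein-coding genes were 66.1%, 68.3%, 67.9% and 66.7% in the same order. The neuronal counts are close to those shares, so they do not set this list apart from genes at large.

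None of the 5 adrenal steroid genes with promoter windows had a peak over one in any list. By gene ends, 0, 1, 2 and 1 of the 6 adrenal genes had a peak in the control, IGF2BP1, IGF2BP2 and IGF2BP3 lists, at CYP21A2 in all 3 knockouts and at NR5A1 in the IGF2BP2 knockout. Of 5 blood markers, SPI1 had a gene-end peak in all 4 lists (903, 981, 820 and 845 bp) and CD3E in the IGF2BP1 knockout alone (450 bp). Of 4 liver markers, APOA1 had one in all 4 lists (915, 1029, 981 and 746 bp). Among all protein-coding genes, between 66.7% and 68.5% had a peak over a promoter window, depending on the list. Between 66.1% and 68.3% had one at a gene end, above the gene-end shares of the adrenal, blood and liver lists. The marker lists are short, and the counts were not tested.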
